A study of Solanum lycopersicum with 6 samples.

Results

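The genes described here are 7 tomato (Solanum lycopersicum) genes of glandular trichomes, found in the deposited table of 35768 gene models by their identifiers. They are the acylsucrose acyltransferases ASAT1 (Solyc12g006330.1.1), ASAT2 (Solyc04g012020.1.1), ASAT3 (Solyc11g067270.1.1) and ASAT4 (Solyc01g105580.1.1), the isopropylmalate synthase IPMS3 (Solyc08g014230.3.1), the terpene synthase TPS12 (Solyc06g059930.3.1) and the regulator Woolly (Solyc02g080260.3.1). The table carries no gene names, so each name rests on the identifier that defines the set. All 7 identifiers were found once, and each had counts in at least 5 of the 6 libraries.

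Glandular trichomes are multicellular hairs on the leaf surface, and their head or tip cells make and release specialised metabolites. Acylsugars, a main product of some trichome types, are sugars carrying short acyl chains and give the leaf a sticky coat against insects. In tomato, ASAT1, ASAT2, ASAT3 and ASAT4 add acyl groups to sucrose one after another, and IPMS3 supplies precursors of branched acyl chains. TPS12 makes the sesquiterpenes caryophyllene and humulene in another trichome type, and Woolly is a homeodomain transcription factor needed for trichome formation.

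The study profiled leaves in 3 groups of 2 libraries each. The groups differed in the kind of library and in how the leaves or extracts were treated. The sample titles name no other condition. The CHX group holds ribosome footprints, short stretches of mRNA that survive RNase because a ribosome covers them, from leaf extracts made with cycloheximide, and the labels assign them to elongating ribosomes. The LTM group holds footprints from leaves treated with LTM, whose extracts then received puromycin, and the labels assign them to initiating ribosomes. The mRNA group holds rRNA-depleted total RNA from an aliquot of the polysome extract described for CHX. All plants were grown in a chamber, the cultivar is not given in the sources used here, and the labels disagree on the age of the plants. Whole leaves were used, so a low count of a trichome gene cannot be separated into few trichome cells and little RNA per cell. Separate plants behind the replicates are not named in the labels, so the p-values reflect no more than the spread among these libraries and may be technical.

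Total counts per library ran from 18240140 in LTM replicate 1 to 48704200 in CHX replicate 1. Levels are CPM, a library's counts scaled to a common total, which are not divided by gene length, so levels are compared between libraries for one gene and not between genes. The authors counted footprints in coding regions but mRNA in whole transcript regions, so a CHX to mRNA or LTM to mRNA ratio varies with the untranslated part of a transcript. The table could not be checked against marker genes of leaf cell types, since no table used here pairs its identifiers with names.

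The 6 enzyme genes gave low counts in these leaves, with at most 129 in a library, whereas Woolly had 60 to 335. The edgeR filter on low counts needs about 0.288 CPM in 2 libraries, and 4 genes passed it: ASAT2, ASAT3, TPS12 and Woolly. None of these 4 depended on the CHX libraries to pass, since each reached that level in at least 2 of the other 4 libraries. ASAT1, ASAT4 and IPMS3 reached it in 1 library each, CHX replicate 2, and are given as values only. Summed over the 7 genes, the level was 5.84 and 8.89 CPM in the mRNA replicates, 8.97 and 13.6 CPM in the CHX replicates and 6.52 and 8.18 CPM in the LTM replicates. Both CHX libraries thus lay above all mRNA and LTM libraries in this sum, by a small margin over mRNA replicate 2. That order depended on the scaling. On totals without the 20 most abundant models, mRNA replicate 2 (12.8 CPM) lay above CHX replicate 1 (11.4 CPM). The sum is also mostly Woolly, which held 327 of the 415 mRNA counts and 604 of the 1090 CHX counts.

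**Figure D1:**
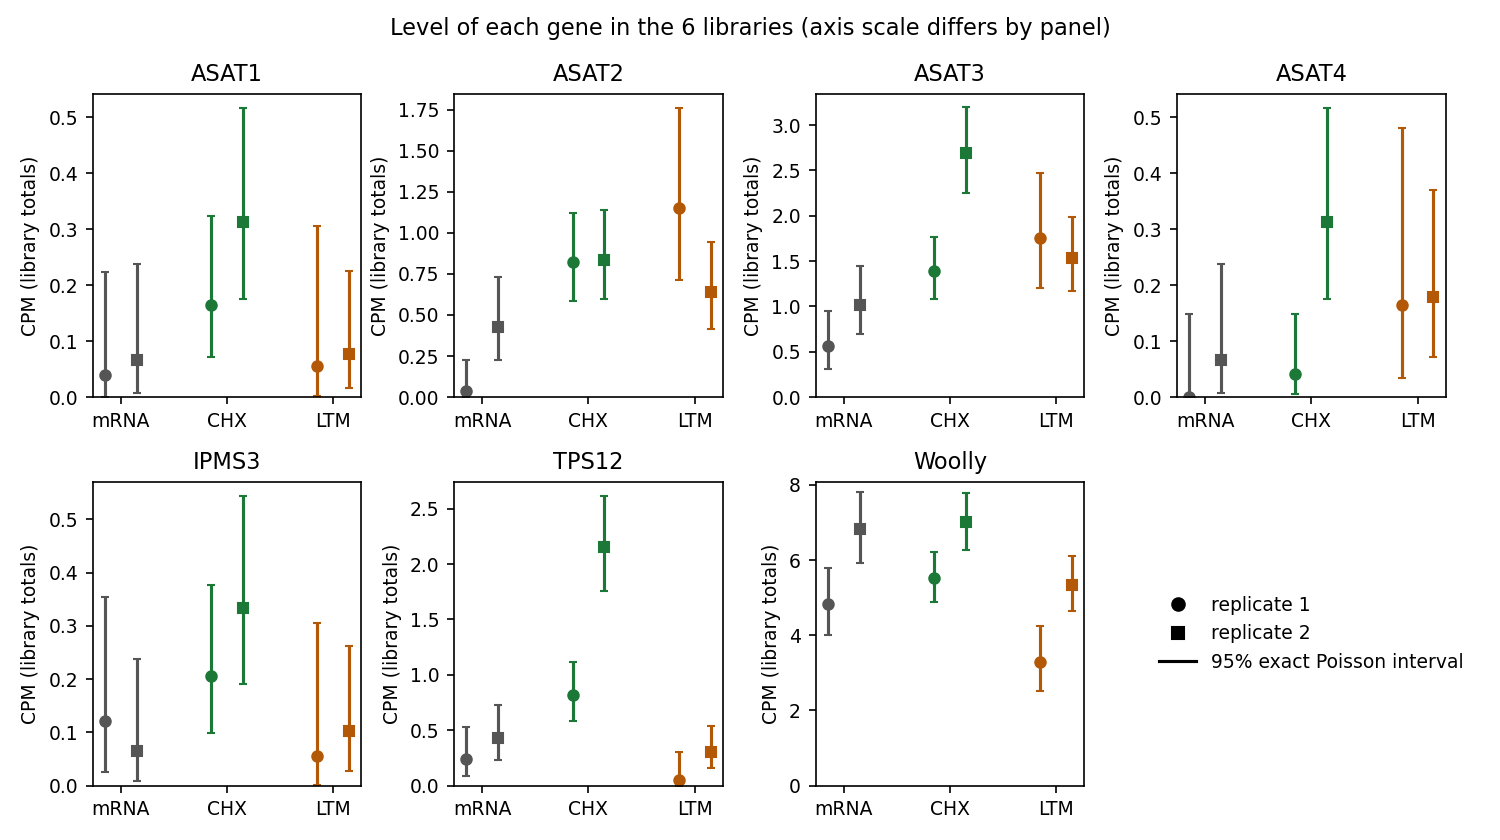
CPM of each gene on library totals (vertical axis, linear from 0, with its own scale in each panel) in the mRNA, CHX and LTM libraries, with circles for replicate 1, squares for replicate 2 and bars for the 95% exact Poisson interval, which covers counting error only. TPS12 stood at 0.821 and 2.15 CPM in CHX and at 0.0548 and 0.308 CPM in LTM, whereas Woolly was between 3.29 and 7.0 CPM in all 6 libraries.

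Elongating-ribosome footprints were set against mRNA to see how many of them a gene carried for its transcript level. ASAT2, ASAT3 and TPS12 carried more footprints relative to mRNA than the bulk of gene models, by 2.58 to 4.37-fold in the fit, and Woolly did not pass the test. These ratios also vary with the untranslated part of each transcript, since only mRNA was counted over whole transcript regions. Of the 4 genes tested, 3 were called higher in CHX and 0 lower in edgeR's quasi-likelihood test (Benjamini-Hochberg adjusted p under 0.05 over all models). Among all 20806 models tested, 22.5% were called higher and 27.4% lower. No gene of the 4 was lower at an unadjusted p under 0.05, and DESeq2 also called 3 higher and 0 lower. All 3 calls were lost, with the direction unchanged, in the fits without mRNA replicate 1 and without CHX replicate 2, which have fewer degrees of freedom. The log2 fold changes were then 1.09 and 1.82 for ASAT2, 1.13 and 0.88 for ASAT3, and 1.91 and 1.35 for TPS12.

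ASAT3, which in tomato adds an acyl chain to the diacylated sucrose, had 14 and 31 mRNA counts, 68 and 129 CHX counts and 32 and 60 LTM counts. On library totals this was 0.564 and 1.02 CPM in mRNA, 1.40 and 2.70 CPM in CHX and 1.75 and 1.54 CPM in LTM. Both CHX libraries lay above both mRNA libraries, and the LTM libraries fell between the CHX replicates. The fitted log2 ratio of CHX over mRNA was 1.37 (SE 0.36, edgeR adjusted p = 0.0161). The adjusted p was 0.0898 without mRNA replicate 1 and 0.0878 without CHX replicate 2, and ran from 0.00288 to 0.0898 over the 11 alternatives. Taken within one replicate number, the CHX to mRNA ratio of CPM was 2.47 (95% exact binomial interval 1.38 to 4.76) for replicate 1 and 2.64 (1.77 to 4.05) for replicate 2. Both values were close, although the CHX level differed by 1.93-fold between the replicates. The labels do not pair the libraries, so this closeness holds only for libraries matched by number. Both intervals are also too wide to show that the ratios were the same.

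ASAT2, which adds the acyl chain before ASAT3 acts, had 1 and 13 mRNA counts, 40 and 40 CHX counts and 21 and 25 LTM counts. Its levels were 0.0403 and 0.428 CPM in mRNA, 0.821 and 0.836 CPM in CHX and 1.15 and 0.641 CPM in LTM. The footprint libraries were all above the mRNA libraries, and the mRNA replicates stood far apart. The fitted log2 ratio of CHX over mRNA was 1.78 (SE 0.63, edgeR adjusted p = 0.0464). It was 1.09 without mRNA replicate 1 (adjusted p = 0.153) and 4.16 without mRNA replicate 2 (adjusted p = 0.0149), so the size of the difference depended on which mRNA library was used. The adjusted p was also 0.118 without CHX replicate 1 and 0.0998 without CHX replicate 2, and ran from 0.0128 to 0.153 over the 11 alternatives. Within replicate 2, which holds most of the mRNA counts, the CHX to mRNA ratio was 1.95 (95% exact binomial interval 1.02 to 3.98).

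TPS12 had 6 and 13 mRNA counts, 40 and 103 CHX counts and 1 and 12 LTM counts. Its levels were 0.242 and 0.428 CPM in mRNA, 0.821 and 2.15 CPM in CHX and 0.0548 and 0.308 CPM in LTM. Both CHX libraries were above the other 4, while mRNA and LTM overlapped. The fitted log2 ratio of CHX over mRNA was 2.13 (SE 0.61, edgeR adjusted p = 0.0217). It was 1.91 without mRNA replicate 1 (adjusted p = 0.102), 2.49 without mRNA replicate 2 (adjusted p = 0.0808) and 1.35 without CHX replicate 2 (adjusted p = 0.134), and the adjusted p ran from 0.00102 to 0.134 over the 11 alternatives. Within replicate numbers, the CHX to mRNA ratio was 3.40 (1.43 to 9.80) for replicate 1 and 5.03 (2.81 to 9.76) for replicate 2. Terpene synthases form a large gene family in tomato, and reads shared with a close copy could be split or dropped in counting. The values of TPS12 are uncertain to that extent. How shared reads were counted is not given for any gene, so the other members may carry the same uncertainty.

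Woolly, the regulator of the set, had 120 and 207 mRNA counts, 269 and 335 CHX counts and 60 and 208 LTM counts. Its levels were 4.84 and 6.82 CPM in mRNA, 5.52 and 7.0 CPM in CHX and 3.29 and 5.34 CPM in LTM. The mRNA libraries overlapped both kinds of footprint, and both LTM libraries lay below both CHX libraries. The log2 fold change of CHX over mRNA was 0.12, with a 95% interval of -0.44 to 0.69 (edgeR adjusted p = 0.696). That interval lay below the fitted 1.37 of ASAT3, whose own interval of 0.52 to 2.21 overlapped it. Since this ratio varies with the untranslated part of each transcript, the difference between the 2 genes is not read as one in ribosome load. Within replicate numbers, Woolly's CHX to mRNA ratio was 1.14 (0.918 to 1.43) and 1.03 (0.861 to 1.23).

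The genes too scarce to test also had more CHX than mRNA per library total, with wide intervals. ASAT1, which starts acylsugar assembly by adding a chain to sucrose, had 1 and 2 mRNA counts, 8 and 15 CHX counts and 1 and 3 LTM counts. Over both replicates its CHX to mRNA ratio was 4.38, with a 95% exact binomial interval of 1.32 to 22.8 that covers counting error only. ASAT4, which adds an acetyl group last, had 0 and 2 mRNA counts, 2 and 15 CHX counts and 3 and 7 LTM counts, and its ratio was 4.86 (1.15 to 43.3). Nearly all of its CHX counts came from replicate 2. The count of 0 in mRNA replicate 1 allows up to 0.121 CPM by a rule of 3 counts. The 95% exact Poisson interval reaches 0.149 CPM. IPMS3 had 3 and 2 mRNA counts, 10 and 16 CHX counts and 1 and 4 LTM counts, and its ratio was 2.97 (1.12 to 9.91). In a fit with no filter on low counts, edgeR gave ASAT1 an adjusted p of 0.0751, ASAT4 one of 0.158 and IPMS3 one of 0.130, so none of the 3 passed there.

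Summed over the 6 enzyme genes, the CHX to mRNA ratio was 3.42 (95% exact binomial interval 2.24 to 5.44) within replicate 1 and 3.20 (2.44 to 4.27) within replicate 2. Both lay above the values of Woolly, but the ratio also varies with the untranslated part of each transcript, which was not corrected for. The sum is dominated by ASAT2, ASAT3 and TPS12, which held the most counts, and the ratio was not tested as a score. The median log2 fold change of the 4 genes tested was 1.57, beside -0.02 over all models tested.

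**Figure D2:**
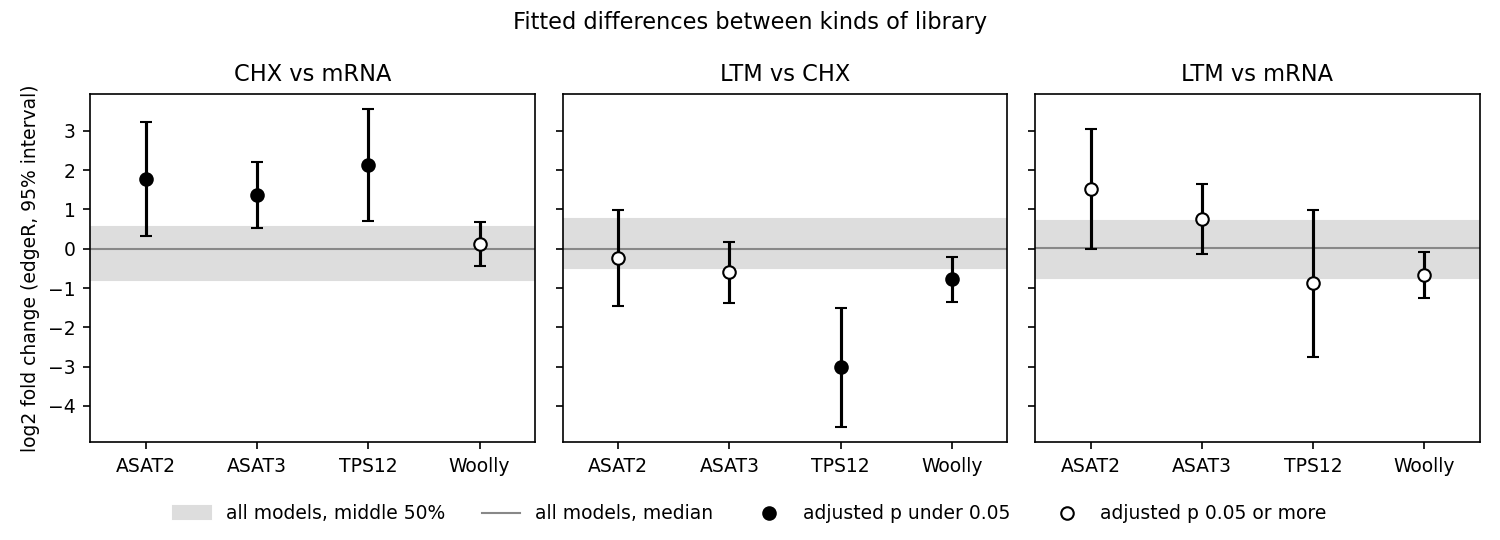
Fitted log2 fold change (vertical axis, with its 95% interval) of ASAT2, ASAT3, TPS12 and Woolly in the 3 comparisons, where filled points have an edgeR adjusted p under 0.05 and the grey band and line give the middle 50% and the median of all 20806 models. In LTM vs CHX, TPS12 lay at -3.01, below the band, while ASAT2 lay at -0.25 and within it.

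Initiating-ribosome footprints (LTM) were set against elongating-ribosome footprints (CHX), both counted in coding regions. Neither was divided by coding length, and whether the LTM to CHX ratio of a gene varies with that length was not tested. TPS12 and Woolly were lower in LTM, with log2 fold changes of -3.01 and -0.78, whereas ASAT2 and ASAT3 did not pass the test. Of the 4 genes tested, 2 were called lower and 0 higher in edgeR's test, beside 19.6% lower and 22.4% higher among all models. That background depends on the scaling: TMM factors gave 4074 models lower and 4654 higher, and total counts gave 1228 lower and 5812 higher, with 1 of the 4 genes lower. None of the 4 was higher at an unadjusted p under 0.05, and DESeq2 called 2 lower and 0 higher. With total counts in place of TMM factors, the median model rose by 0.29 (log2) in this comparison, so each difference is relative to other models.

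TPS12 had the lowest LTM to CHX ratio of the 4 genes, with a fitted log2 value of -3.01 (SE 0.65, edgeR adjusted p = 0.00815). Both LTM libraries, at 0.0548 and 0.308 CPM, were below both CHX libraries, at 0.821 and 2.15 CPM. The call held in all 11 alternatives, where the log2 fold change ran from -4.96 to -2.24 and the adjusted p from 0.000197 to 0.0424. Against its own mRNA, TPS12 in LTM did not pass the test, with a log2 fold change of -0.88 and a 95% interval of -2.75 to 0.99 (edgeR adjusted p = 0.387). The LTM value rests on 13 counts in all, and its size moved with the library kept: the LTM vs CHX value was -2.50 with LTM replicate 1 left out and -4.96 with replicate 2 left out.

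Woolly had 3.29 and 5.34 CPM in LTM against 5.52 and 7.0 CPM in CHX, and its fitted log2 difference was -0.78 (SE 0.25, edgeR adjusted p = 0.0367). The LTM replicates were both below the CHX replicates, with LTM replicate 2 close to CHX replicate 1. The call was lost with total counts (log2 fold change -0.51, adjusted p = 0.171). It was also lost, with values from -0.90 to -0.49, in 4 fits that left out 1 library. The value was -0.90 without CHX replicate 1 (adjusted p = 0.0642), -0.66 without CHX replicate 2 (0.140), -0.49 without LTM replicate 1 (0.106) and -0.73 without mRNA replicate 2 (0.0745). The adjusted p ran from 0.00365 to 0.171 over the 11 alternatives, all with a lower value in LTM.

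ASAT3 had a log2 fold change of -0.60 in LTM vs CHX, with a 95% interval of -1.38 to 0.18 (edgeR adjusted p = 0.187). ASAT2 had one of -0.25, with an interval of -1.47 to 0.98 (edgeR adjusted p = 0.739), and its sign turned with total counts, at 0.05, and without LTM replicate 2, at 0.15. These intervals are wide enough to hold a change of the size seen for Woolly. For the genes too scarce to test, the LTM to CHX ratio over both replicates was 0.293 for ASAT1 (95% exact binomial interval 0.0738 to 0.859), 0.325 for IPMS3 (0.0973 to 0.859) and 0.993 for ASAT4 (0.406 to 2.30). The intervals of ASAT1 and IPMS3 lay below 1, but they leave out the spread between replicates, and with no filter on low counts the edgeR adjusted p was 0.0792 for ASAT1 and 0.0727 for IPMS3.

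The counts of a pair of genes within one library give a comparison into which no library scaling enters, and ASAT3 was taken as the partner after the counts had been seen. TPS12 made up 37.0% (95% exact binomial interval 27.9 to 46.9) and 44.4% (37.9 to 51.0) of the counts of TPS12 and ASAT3 together in the CHX replicates. In the LTM replicates the share was 3.03% (0.0767 to 15.8) and 16.7% (8.92 to 27.3). In the mRNA replicates it was 30.0% (11.9 to 54.3) and 29.5% (16.8 to 45.2), with intervals that overlapped those of CHX. Both LTM shares were below both CHX shares. The share holds the same TPS12 counts as the call in LTM vs CHX, its intervals leave out the spread between replicates, and it was not tested across libraries.

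The same share for ASAT2 and ASAT3 showed no such gap between the kinds of footprint. ASAT2 made up 37.0% (27.9 to 46.9) and 23.7% (17.5 to 30.8) of the pair in CHX and 39.6% (26.5 to 54.0) and 29.4% (20.0 to 40.3) in LTM. In mRNA it made up 6.67% (0.169 to 31.9) and 29.5% (16.8 to 45.2), so the low mRNA replicate 1 of ASAT2 rests on 1 count of 15. Woolly's share of the counts of Woolly and ASAT3 was 89.6% and 87.0% in mRNA, 79.8% and 72.2% in CHX, and 65.2% and 77.6% in LTM. Both mRNA libraries lay above all 4 footprint libraries in this share, and CHX and LTM overlapped. For each pair, mRNA was counted in transcript regions and footprints in coding regions. A gap in share between mRNA and footprints thus also varies with the untranslated parts of both genes. Woolly's share holds the same ASAT3 counts as the call of ASAT3 in CHX vs mRNA, and it was not tested across libraries.

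**Figure D3:**
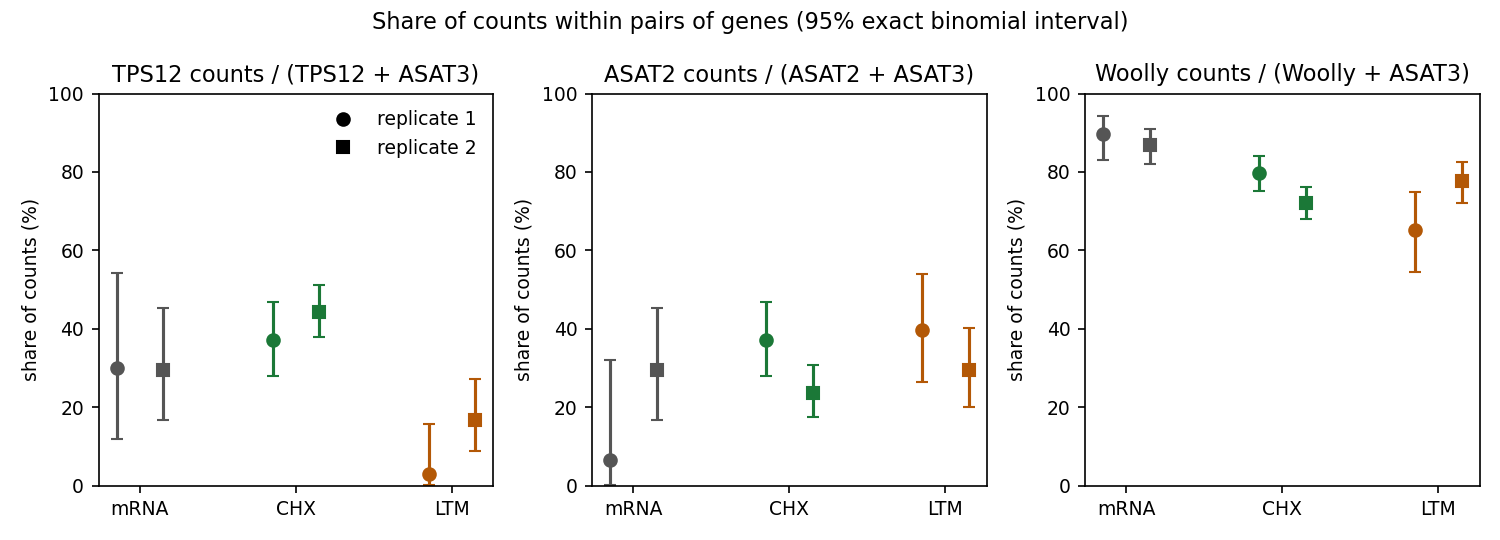
Share of a gene's counts in its sum with ASAT3 (vertical axis, percent) for TPS12, ASAT2 and Woolly in the mRNA, CHX and LTM libraries, with circles for replicate 1, squares for replicate 2 and bars for the 95% exact binomial interval. TPS12 made up 37.0% and 44.4% in CHX but 3.03% and 16.7% in LTM.

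Last, initiating-ribosome footprints from LTM-treated leaves were set against mRNA, which came from the extract described for CHX. None of the 4 genes tested was called in either direction in edgeR's test, beside 25.5% higher and 27.4% lower among all models. With total counts 6849 models were higher and 4166 lower, against 5299 and 5691 with TMM factors. At an unadjusted p under 0.05, 1 gene was higher (ASAT2) and 1 lower (Woolly), and DESeq2 called 0. ASAT2 had a log2 fold change of 1.53 with a 95% interval of 0.0037 to 3.06 (edgeR adjusted p = 0.0847). Its value was 3.97 without mRNA replicate 2, which leaves the mRNA library with 1 count, and 0.83 without mRNA replicate 1. It passed with total counts (0.0389), with no filter (0.0398) and without mRNA replicate 2 (0.0144), within adjusted p of 0.0144 to 0.270 over the 11 alternatives. Woolly had a log2 fold change of -0.66 with an interval of -1.25 to -0.07 (edgeR adjusted p = 0.0598), and it passed with upper-quartile factors (0.0490), with no filter (0.0258), with a replicate block (0.00928) and without LTM replicate 2 (0.00934), within adjusted p of 0.00928 to 0.305. ASAT3 lay at 0.77, with an interval of -0.13 to 1.66 (edgeR adjusted p = 0.130).

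The summed level of the 6 enzyme genes differed between the replicates of mRNA and of CHX by more than counting error, and not between those of LTM. Summed over the 6 enzyme genes, the level was 1.01 CPM in mRNA replicate 1 and 2.07 CPM in mRNA replicate 2, a ratio of 2.06 (95% exact binomial interval 1.28 to 3.42). In CHX it was 3.45 and 6.64 CPM, a ratio of 1.93 (1.59 to 2.34). In LTM it was 3.23 and 2.85 CPM, a ratio of 0.880 (0.636 to 1.23). The sum does not hold for every gene: the ratio was 0.545 (0.0455 to 4.75) for IPMS3 in mRNA, on 5 counts. There it was 10.6 (1.60 to 451) for ASAT2, on 1 count in replicate 1 and 13 in replicate 2. It was 1.81 (0.934 to 3.68) for ASAT3 and 1.77 (0.628 to 5.68) for TPS12. Of the 6 genes, only ASAT2 had an mRNA interval above 1, and the mRNA sum without ASAT2 was not tested. In CHX the ratio was 1.02 for ASAT2. In LTM it was 5.61 (0.831 to 240) for TPS12, on 1 and 12 counts, and 0.557 (0.299 to 1.05) for ASAT2. The LTM sum thus joins genes whose values went opposite ways, with intervals that hold 1.

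Among all models of at least 10 counts in a kind, the middle 50% of the ratios of replicate 2 to replicate 1 ran from 1.03 to 1.38 in mRNA, from 0.916 to 1.27 in CHX and from 0.799 to 1.15 in LTM. These are ratios of single models, so the sum is not read against them. Of the members with at least 10 counts in the kind, 4 of 4 were higher in mRNA replicate 2, 7 of 7 in CHX replicate 2 and 3 of 5 in LTM replicate 2, beside 78.6%, 61.4% and 42.4% of all such models. With TMM factors the ratio of the summed enzyme genes came to 1.73 (mRNA), 1.80 (CHX) and 0.918 (LTM), a setting added after the data were seen.

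Within CHX the ratio differed from gene to gene. It was 2.62 (1.80 to 3.88) for TPS12, 1.93 (1.43 to 2.63) for ASAT3 and 7.63 (1.78 to 68.8) for ASAT4, but 1.02 (0.640 to 1.62) for ASAT2. The interval of ASAT2 lay below the values of ASAT3 and TPS12, although it overlapped the interval of ASAT3. Woolly was higher in replicate 2 of every kind, with ratios of 1.41 (1.12 to 1.78) in mRNA, 1.27 (1.08 to 1.49) in CHX and 1.62 (1.21 to 2.20) in LTM. No label ties a replicate number to one extract or harvest, and whether trichome density or handling of the leaves differed between libraries was not tested.

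**Figure D4:**
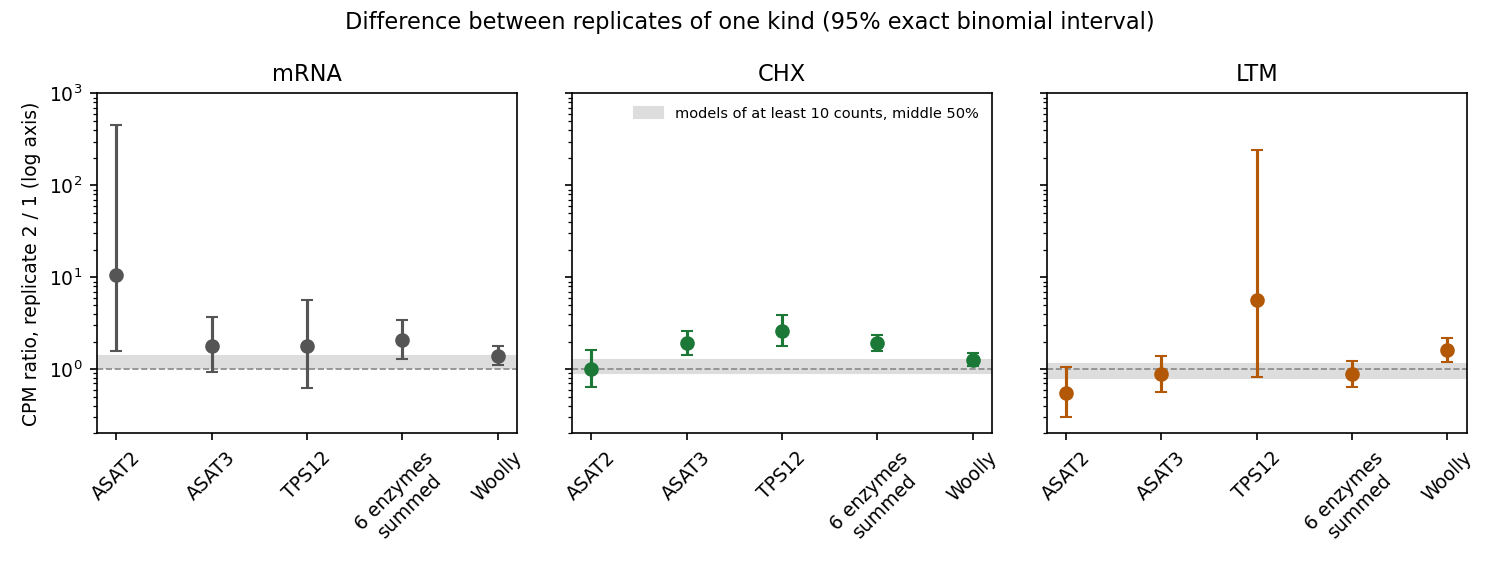
Ratio of CPM in replicate 2 to that in replicate 1 (vertical log axis) within mRNA, CHX and LTM for ASAT2, ASAT3, TPS12, the 6 enzyme genes summed and Woolly, with 95% exact binomial intervals, where the grey band is the middle 50% of single models with at least 10 counts. The summed enzyme genes were at 2.06 in mRNA, at 1.93 in CHX and at 0.880 in LTM.

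The models most like the 2 genes with the highest mRNA CPM, Woolly and ASAT3, were sought among the other 20805 tested models by Euclidean distance in log2 CPM over the 6 libraries. CPM is not divided by length, so this is a likeness in counts and not in transcript abundance. Nearest to Woolly were Solyc02g090020.3.1 at a distance of 0.36 and Solyc08g068100.3.1 at 0.39. Nearest to ASAT3 were Solyc03g078810.3.1 at 0.50 and Solyc08g082070.3.1 at 0.59. Neither neighbour of ASAT3 matched its gap between the CHX replicates: they had 1.48 and 1.94 CPM and 1.66 and 1.90 CPM there, against 1.40 and 2.70 CPM for ASAT3.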

How the data were processed

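The authors deposited raw counts per gene model, taken in transcript regions for mRNA but in coding regions for the 4 footprint libraries, per the file headers. Not given in the sources used here were the aligner, counting tool, strand setting, genome build and annotation. Groups and replicate numbers came from the sample titles. All tests used R 4.3.3 and edgeR 4.0.16 (limma 3.58.1): filterByExpr with a minimum count of 10, TMM factors and 1 quasi-likelihood model of all 6 libraries with the kind as factor (3 residual degrees of freedom), two-sided, with Benjamini-Hochberg adjustment over 20806 models and a threshold of 0.05. Log2 CPM for distances used a prior count of 2. SE was the log2 fold change divided by the square root of F. Exact Poisson and binomial intervals (95%, SciPy 1.17.1) cover counting error only, since the labels mention no molecular identifiers. By a rule separate from these intervals, a count of 0 was taken to allow 3 counts, which is 0.0616 CPM in the deepest and 0.164 CPM in the shallowest library. DESeq2 1.42.0, other scaling, no filter, a replicate block and leaving out each library were the alternatives. The procedure was tested on simulated data in which only a small part of the models was changed. That setting does not cover differences as widespread as those called among all models here.

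The genes and tests were chosen with earlier results of these data known. The naming rule took all 7 genes and, for the 2 with most mRNA, the 2 nearest models. A planned list of other trichome genes, a marker check and footprints per coding length were not used, since 0 of 41476 entries of the RefSeq gene table (assembly SLM_r2.1) carry the deposited identifiers.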

Additional observations from a re-analysis of the deposited data

How the results depend on the processing

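Low read counts limit all values but those of Woolly. Of 132 alternative values for the 4 genes tested, 110 kept direction and call, 13 lost the call, 7 gained one and 2 changed sign. Both sign changes were for ASAT2 in LTM vs CHX, which was never called (0.048 with total counts, and -0.63 to 0.15 when 1 library was left out). A call could be lost only by the 3 genes called in CHX vs mRNA and the 2 called in LTM vs CHX. Results not called in the main fit were counted as kept when they stayed uncalled with the same sign. The genes called higher in CHX than in mRNA numbered 0 to 3 when 1 library was left out, and those lower in LTM than in CHX 1 to 2, or 1 with total counts. In LTM vs mRNA, total counts gave 1 gene higher, no filter 1 higher and 1 lower, upper-quartile factors 1 lower, and leaving out 1 library 0 to 1 in each direction. Among all models, leaving out 1 library gave 2678 to 4920 higher in CHX than in mRNA and 2482 to 3522 lower in LTM than in CHX, where total counts gave 1228. A group left with 1 library was assumed to vary like the others, and such fits have fewer degrees of freedom. For the other settings the cause was not tested. The summed level of the 7 genes was a mean of 7.37 CPM in mRNA, 11.3 CPM in CHX and 7.35 CPM in LTM. On totals without the 20 most abundant models, which shrinks the totals, it was 11.1, 14.4 and 9.09 CPM. There CHX replicate 1 no longer lay above mRNA replicate 2 in this sum. A replicate block gave 3 genes higher in CHX than in mRNA, 2 lower in LTM than in CHX and 1 (Woolly) lower in LTM than in mRNA. The labels do not pair the libraries. Same-numbered libraries deviated together across models, with correlations of 0.356 (CHX with mRNA), 0.338 (LTM with CHX) and 0.207 (LTM with mRNA). Pooled over tested models of at least 10 counts in a kind, replicates differed by more than sampling noise, with chi-square per degree of freedom of 49.1 to 54.7. This value used column totals without TMM factors and was not computed for the 7 genes alone.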
